A study of Arabidopsis thaliana with 12 samples.

Results

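The cell wall genes AT4G18180 and CSLA01 (AT4G16590), were described in Arabidopsis thaliana plants whose photosynthetic electron flow was blocked with a herbicide. They are 2 of the 3278 features that could be tested on the array, and 2 of the 651 with a gene name of their own. Each is read by the single probe whose platform annotation names that gene alone: probe 2636 for AT4G18180 and probe 319 for CSLA01. Both genes were chosen by their measured change with the herbicide in these same arrays, the first a fall and the second a rise. The direction and size of that change, and its steadiness across samples, are therefore given below as a description with no test.

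The plants were wild type of ecotype C24. In the first group, 6 samples came from plants grown under light that drives photosystem II and treated with DCMU; in the second, 6 samples came from plants under the same light without DCMU. DCMU, also called diuron, stops photosystem II from handing its electrons on to plastoquinone. The labels give no tissue, plant age, dose or length of treatment, and do not say whether the samples came from separate plantings. All 7 of the green-tissue genes looked for (antenna, photosystem and Calvin cycle genes) were measured, with intensities from 0.507 to 25.4, and none was at the floor on any array. With the probes of a gene averaged, all 651 named genes tested stayed above the floor on every array. The 7 genes therefore do not tell the tissue.

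The plant cell wall is a network of cellulose fibres held in a matrix of pectins and hemicelluloses. AT4G18180 belongs to the pectin lyase-like superfamily, which shares a fold with the polygalacturonases and pectate lyases, enzymes that cut the backbone of pectin. CSLA01 belongs to the cellulose synthase-like A family of Golgi glycosyltransferases, whose characterised members build the mannan backbone of hemicelluloses. The substrate of AT4G18180 itself is not stated in the sources used here. Both lie on chromosome 4, with 173 protein-coding genes between them in the TAIR10.1 annotation.

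Levels are spot intensities on a linear scale, in units set by the authors' own scaling. The brightness of a probe cannot be compared with that of another as an amount of transcript. Array totals ran from 3643 to 3768. Values under 0.0669 were raised to that floor before log2 was taken, and neither gene was at the floor on any array. In each group, sample numbers 1 and 2, 3 and 4, and 5 and 6 resembled each other and were averaged on the log2 scale, which gives 3 replicates per group. Their SD measures the spread between these samples, which may be technical. In bulk RNA, fewer cells of a type and less transcript per cell cannot be told apart.

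AT4G18180, the pectin lyase-like gene, had intensities of 0.717, 0.640, 0.621, 0.653, 0.562 and 0.597 in DCMU samples 1 to 6, against 1.90, 1.93, 2.14, 2.39, 1.79 and 1.79 in untreated samples 1 to 6. All 6 DCMU arrays lay below all 6 untreated arrays, and the groups were far apart: the lowest untreated array was 2.49 times the highest DCMU array. Over all features, 5.61% had 6 DCMU arrays all below the 6 untreated ones. The replicates averaged 0.631 ± 0.0495 in DCMU plants and 1.99 ± 0.246 in untreated plants (SD, n = 3 each). The log2 change was -1.65, with an SD of 0.17 over the 3 number pairs, which is a level 3.14-fold lower in DCMU plants. Among the 651 named genes it was the second lowest change.

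CSLA01, the cellulose synthase-like gene, had intensities of 0.466, 0.467, 0.458, 0.507, 0.452 and 0.496 in DCMU samples 1 to 6, against 0.292, 0.287, 0.376, 0.396, 0.229 and 0.265 in untreated samples 1 to 6. All 6 DCMU arrays lay above all 6 untreated arrays, but the gap was narrow: the lowest DCMU array was 1.14 times the highest untreated array. Over all features, 9.82% had 6 DCMU arrays all above the 6 untreated ones. The replicates averaged 0.474 ± 0.00773 in DCMU plants and 0.307 ± 0.0714 in untreated plants (SD, n = 3 each). The log2 change was 0.65, with an SD of 0.31 over the number pairs, which is a level 1.57-fold higher in DCMU plants. Among the 651 named genes, 6 had a higher change.

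Both genes were among the features called in the comparison of DCMU with untreated plants, which holds 5.09% of all features tested, 3.17% lower and 1.92% higher. That comparison chose them, so nothing is read from it. The balance of that background turned with the fit: 215 features were lower and 351 higher with the number pair as a block, and 326 were lower and 175 higher with the block after median centring. Over all features the median log2 change was 0.10. With every array shifted to a common median, the changes became -1.73 for AT4G18180 and 0.58 for CSLA01.

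**Figure D1:**
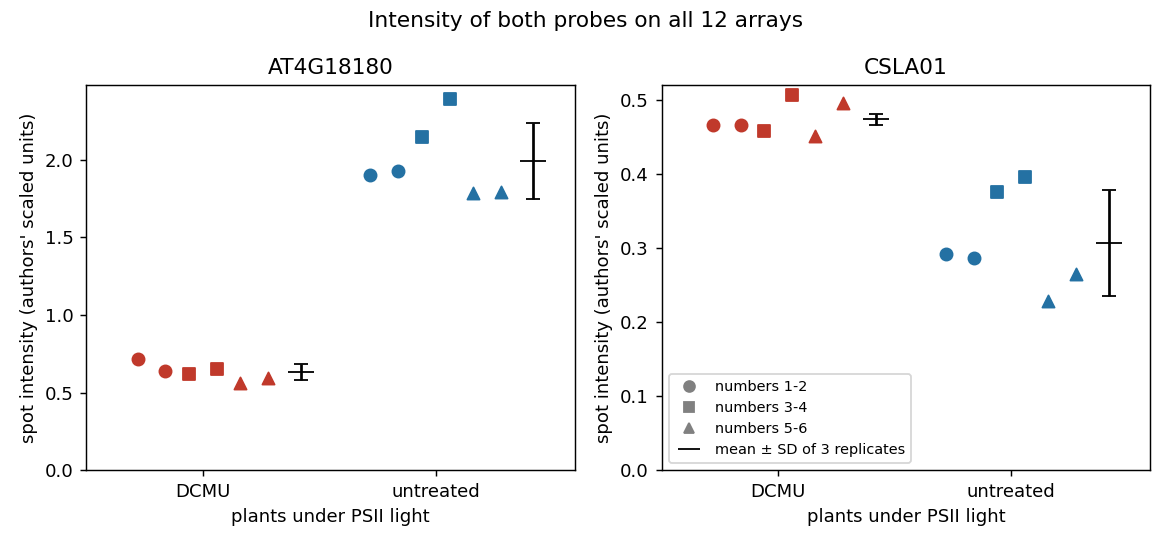
Spot intensity of AT4G18180 (left) and CSLA01 (right) on all 12 arrays, in the authors' scaled units, with DCMU samples left of untreated samples in each panel. Circles, squares and triangles are sample numbers 1-2, 3-4 and 5-6, and black bars are the mean ± SD of 3 replicates. AT4G18180 lies near 0.631 in DCMU plants and near 1.99 in untreated plants; CSLA01 is almost level across DCMU samples and spread from 0.229 to 0.396 across untreated ones.

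The size of the change in AT4G18180 varied little from pair to pair. In numbers 1-2 its level was 0.677 in DCMU plants and 1.92 in untreated plants, a log2 change of -1.50. In numbers 3-4 it was 0.637 in DCMU plants and 2.26 in untreated plants, a log2 change of -1.83. In numbers 5-6 it was 0.579 in DCMU plants and 1.79 in untreated plants, a log2 change of -1.63. Taken number by number, the 6 log2 changes ran from -1.87 (number 4) to -1.41 (number 1).

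CSLA01 had a small change in numbers 3-4 and a large one in numbers 5-6. Its level in numbers 1-2 was 0.466 in DCMU plants and 0.289 in untreated plants, 1.61-fold higher with DCMU. In numbers 3-4 it was 0.482 in DCMU plants and 0.386 in untreated plants, only 1.25-fold higher. In numbers 5-6 it was 0.473 in DCMU plants and 0.246 in untreated plants, 1.92-fold higher. The DCMU levels were nearly equal in the 3 pairs, so the untreated level set the size of the change. By single number the log2 change ran from 0.29 (number 3) to 0.98 (number 5), positive in 6 of 6.

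**Figure D2:**
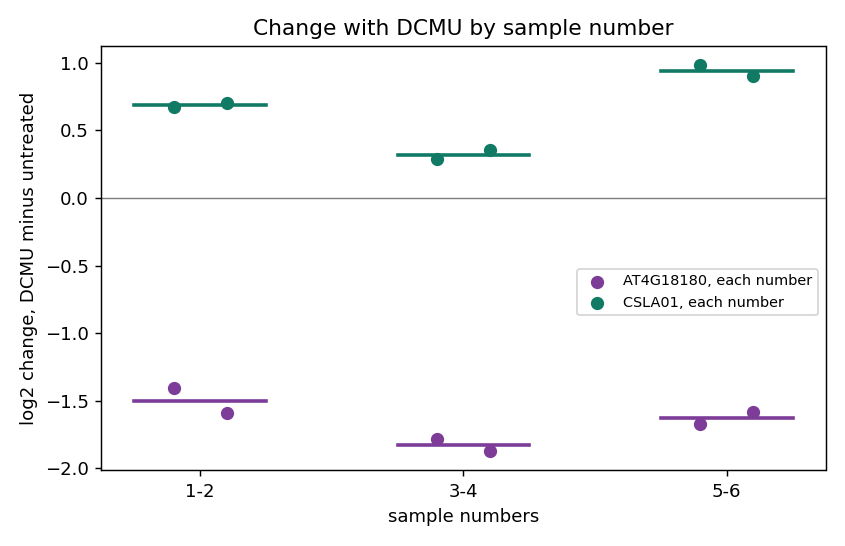
Log2 change, DCMU minus untreated, for each sample number (points) and for the mean of each number pair (lines), with number pairs along the horizontal axis. AT4G18180 stays between -1.87 and -1.41; CSLA01 is lowest in numbers 3-4 (0.32) and highest in numbers 5-6 (0.94).

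The array medians had the same order over number pairs as the CSLA01 changes: the DCMU minus untreated difference of the log2 median was 0.08 in numbers 1-2, -0.00406 in numbers 3-4 and 0.15 in numbers 5-6. With every array shifted to a common median, the CSLA01 changes were 0.61, 0.33 and 0.79 in that order, and after quantile normalization 0.56, 0.33 and 0.77, smallest in numbers 3-4 each time. The AT4G18180 changes after quantile normalization were -1.58, -1.76 and -1.68. Whether the change differed between number pairs was not tested, because the choice of the genes leaned on a small spread between those same pairs.

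The spread between arrays was uneven in CSLA01. The SD of its log2 intensity was 0.07 over the 6 DCMU arrays and 0.30 over the 6 untreated arrays, the lowest of which were dim. Only 7.44% of features had a smaller spread among DCMU arrays, and 92.6% had a smaller one among untreated arrays. As scaled by the authors, the spread was 4.56 times larger without DCMU; 98.9% of features had a lower ratio, and the median ratio was 1.06. AT4G18180 had an SD of 0.12 over DCMU arrays and 0.16 over untreated arrays, close to the medians over all features of 0.14 in each group. The ratio moved with the scaling: it was 2.98 after median centring (SD 0.09 in DCMU and 0.28 in untreated arrays) and 2.79 after quantile normalization (0.09 and 0.25), with 95.9% of features lower in both. These are descriptions, since the choice of the genes leaned on a small spread.

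**Figure D3:**
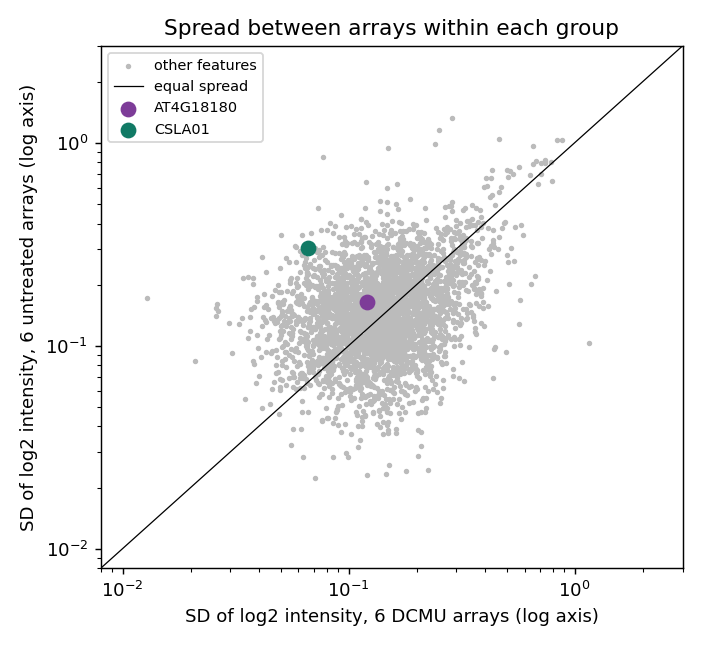
SD of log2 intensity over the 6 DCMU arrays (horizontal, log axis) against the 6 untreated arrays (vertical, log axis) for the features tested, with the line of equal spread. CSLA01 lies well above the line, at 0.07 and 0.30; AT4G18180 lies near the middle of the cloud, at 0.12 and 0.16. The axes show 3273 features, and 5 lie outside them.

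Within untreated plants the levels of the genes ran in parallel across arrays, although their changes with DCMU had opposite signs. Both were highest in untreated samples 3 and 4 and lowest in untreated samples 5 and 6, and Pearson's r of their log2 levels over the 6 untreated arrays was 0.95. Over the 6 DCMU arrays, where CSLA01 hardly varied, r was 0.18. The 6 arrays are 3 pairs and share the deviations of their number pair with many other features, so these values describe the arrays and were given no test. With deviations from the group mean over all 12 arrays, the r of the 2 genes was 0.77, against a median r of 0.24 between AT4G18180 and 650 named genes and of 0.23 between CSLA01 and the same number.

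The named genes with the most similar levels over the 12 arrays differed for the 2 genes, as their opposite changes would have it. For AT4G18180 they were AT5G11550 (r = 0.99), AT4G35660 (r = 0.98) and AT3G04210 (r = 0.97), with log2 changes of -1.08, -2.34 and -1.19. AT3G04210 is a TIR-NBS family gene, a family of intracellular immune receptors. AT5G11550 averaged 0.541 in DCMU arrays and 1.14 in untreated arrays, and like AT4G18180 it was highest in untreated samples 3 and 4, at 1.29 and 1.25, and lowest in untreated sample 5, at 0.989. Of 650 named genes compared, 7 had r above 0.9 with AT4G18180 and 5 had r below -0.9. These values rest mostly on the distance between the groups, so the changes of genes picked by them were given no test.

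For CSLA01 the most similar were AT5G02050 (r = 0.97), AT5G58330 (r = 0.97) and AT1G50880 (r = 0.97), with log2 changes of 0.29, 0.37 and 0.58. AT5G58330 encodes the chloroplast NADP-dependent malate dehydrogenase, an enzyme that exports reducing power from the chloroplast as malate and is switched on by thioredoxin in the light. It averaged 1.94 in DCMU arrays and 1.51 in untreated arrays, with its highest untreated values in samples 3 and 4, at 1.68 and 1.85. Of the 650 genes, 22 had r above 0.9 with CSLA01 and 4 had r below -0.9.

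With the group means removed, so that only the differences between arrays of a group counted, the order changed. The closest to AT4G18180 were AT1G03810 (r = 0.91), AT2G46190 (r = 0.90) and AT3G17950 (r = 0.90), with log2 changes of 0.35, 0.24 and 0.33, opposite in sign to that of AT4G18180. The closest to CSLA01 were AT5G58330 (r = 0.93), AT5G11550 (r = 0.93) and AT4G39690 (r = 0.91). AT5G11550 is thus near AT4G18180 in its level over the groups and near CSLA01 in its pattern within groups. All r are over 12 arrays that share number pairs.

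The other wall probes found by a search were all annotated to several genes and gave little to set beside these. A list of 100 wall loci, widened by keywords in gene symbols and synonyms, matched no further probe annotated to 1 gene. That search was incomplete. It did not pick up GH9B8, GH9B11 and GH9B12, glycosyl hydrolase genes that were measured under their own names. They are not counted as wall genes here and their changes are not given. What follows therefore does not cover them. A total of 8 probes annotated to several genes included at least 1 gene found by the search. None of them passed limma's test (0 higher, 0 lower), against the 5.09% of features called. Before adjustment, 1 of the 8 had a limma p under 0.05, as had 804 of the 3278 features. With the number pair as a block 1 of 8 passed, probe 2938, against 17.3% of all features. With the block after median centring probe 1130 was the 1 of 8 that passed, and with it after quantile normalization none did. Their log2 changes ran from -0.23 to 0.34, with 5 above and 3 below 0, and their median of 0.09 lay by the 0.10 of all features. The changes of AT4G18180 (-1.65) and CSLA01 (0.65) fall outside that range, as their choice would have it.

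Among the 8 were 2 probes whose listed genes were all of the cellulose synthase-like C family, the family of xyloglucan backbone synthases. Probe 1130 averaged 0.900 in DCMU arrays and 1.05 in untreated arrays, a log2 change of -0.23 with an SE of 0.13 (limma, adjusted p = 0.285, 0.128 with the block, 0.0489 if median centring preceded the block, and 0.0489 to 0.507 over all alternatives). The change was negative in all 3 number pairs. Probe 4030 averaged 1.08 in DCMU arrays and 1.13 in untreated arrays, a log2 change of -0.07 with an SE of 0.12 (limma, adjusted p = 0.745). That value came from numbers 5-6, at -0.25, while numbers 1-2 and 3-4 were at 0.01 and 0.04; without untreated numbers 5-6 the change was 0.04. Probe 2938, whose 2 listed genes are both expansin-like, had the highest change of the 8, at 0.34 with an SE of 0.11 (limma, adjusted p = 0.115, 0.0321 with the block, 0.0665 if median centring preceded the block, and 0.00365 to 0.274 over all alternatives). The low end, 0.00365, came from the limma fit without averaging, in which each array counted as its own replicate. Arrays of a pair may be technical repeats, so that adjusted p may be too small. The change of probe 2938 was positive in all 3 number pairs, at 0.29, 0.29 and 0.45. Its 6 DCMU arrays, at 0.590 to 0.725, all lay above its 6 untreated arrays, at 0.474 to 0.568. The same order held for 9.82% of all features. Among the 8 it also held for probe 380, whose 2 listed genes include 1 wall gene.

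The other 5 probes list a single wall gene beside genes outside the list. Probe 3133 varied most from pair to pair among the 8, as the plot of wall probes shows. Probe 1431 stood at 100, the highest value deposited, on 3 arrays. Whether 100 is a limit of the scale is not stated. If it is, the level there may have been higher, so its log2 change of -0.05 is uncertain.

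**Figure D4:**
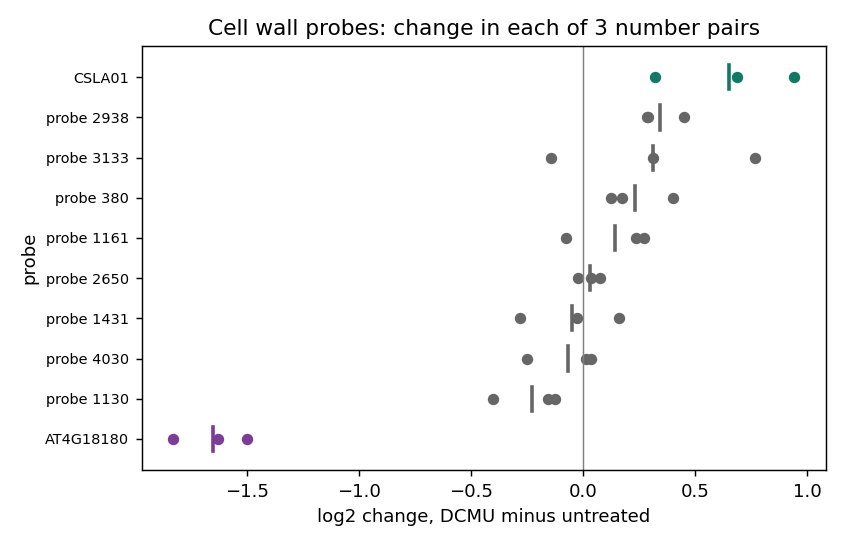
Log2 change, DCMU minus untreated, in each of the 3 number pairs (points) and their mean (bars) for CSLA01, AT4G18180 and the 8 wall probes annotated to several genes. The 8 means lie between -0.23 and 0.34; CSLA01 lies above them at 0.65 and AT4G18180 far below at -1.65.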

How the data were processed

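The deposited table gives spot intensities, not log-transformed, of 3439 probes on 12 arrays, all of which were used. How the arrays were labelled, background-corrected and scaled is not stated in the sources used here. As far as the deposited values show, the authors had scaled the arrays to similar totals, and no value was above 100. Probe names came from the platform annotation: 692 probes list 1 gene, 870 several and 1877 none in the table used here. Symbols were updated through RefSeq TAIR10.1. No name was checked by sequence, and a family member's probe may report similar genes.

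A floor was set at percentile 1 of the positive values, log2 was taken, the 160 probes at that floor on every array were left out, and probes of 1 gene were averaged. Within a group, the correlation of deviations from its mean was 0.36 to 0.67 in number pairs and -0.58 to -0.11 between other numbers. Averaged replicates of the same numbers correlated across groups at 0.38 to 0.44, so the fits with a block paired them by number. The main fit had no block and did not use this pairing. Tests used limma 3.58.1 in R 4.3.3 (two-sided, Benjamini-Hochberg over all features, threshold 0.05). The main fit was also run on simulated data. Those data had no shared deviations of number pairs, so the run cannot show how the test behaves on these arrays. The number of arrays limits the precision.

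The members, lists and tests were chosen with earlier results of these data known. Named genes were the members, the 3 most similar genes by each measure and measured wall list genes, and, added after values were seen, the 3 probes whose several listed genes are all wall genes. Tests between number pairs had been planned for the members and are not reported, since the members' choice depended on the spread between pairs. Alternatives changed the scaling, floor, filter, block, variance trend and replicates.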

Additional observations from a re-analysis of the deposited data

How the results depend on the processing

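The log2 change of AT4G18180 was -1.73 to -1.51 under the other settings and -1.72 to -1.55 without 1 replicate; that of CSLA01 was 0.51 to 0.65 and 0.50 to 0.83. Neither changed sign or moved by more than the spread between replicates in any of these. The CSLA01 spot was dim, with 19.0% of features at a lower mean level. It was removed by the filter that kept features above the 25th percentile of mean level. The count of 167 called features became 110 with the floor at the 10th percentile, 102 with no filter on features at the floor, 1089 (322 lower, 767 higher) with all 12 samples as separate replicates and 302 with the sample pair as a random block. With the replicate block it was 566, with the block after median centring 501, and with the block after quantile normalization 465 (280 lower, 185 higher), the last chosen after seeing the data. Without 1 replicate it was 77 to 282: 77 without DCMU 1-2, 90 without DCMU 5-6, 82 without untreated 1-2, 282 without untreated 3-4 and 87 without untreated 5-6. The alternatives for the wall probes were also chosen after seeing the data. The count of 0 of 8 became 2 with all 12 samples as separate replicates, 1 with the replicate block (probe 2938) and 1 with the block after median centring (probe 1130), and was 0 to 0 without 1 replicate. Without 1 replicate, the log2 change of probe 4030 was -0.13 to 0.0382, above 0 without untreated 5-6. The alternatives planned for tests between number pairs are not reported, as those tests were dropped. Except where fewer samples were fitted, the cause was not tested. Without background values, a dim level cannot be told from none.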
